A study of Saccharomyces cerevisiae with 4 samples.

Results

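The 10 genes of cell wall glucan and chitin synthesis were followed from the total lysate of budding yeast into nuclear messenger ribonucleoprotein particles (mRNPs) purified from it. They were taken by their identifiers from a table of 6692 open reading frames: FKS1, GSC2 and FKS3 of the glucan synthase family, the chitin synthase genes CHS1, CHS2 and CHS3, the wall remodelling genes GAS1, BGL2 and CRH1, and KRE6 of beta-1,6-glucan assembly. All 10 passed the filter on low counts that left 6191 genes for testing. The 4 libraries came from 2 eluates and 2 lysates, whose replicates the study calls biological. Every library came from BY4741 cells with the alleles sub2-FLAG-3C-ProtA::kanMX4 and hpr1-TS::hphNT1, grown in YPD without other treatment, so that both fractions carry the tagged Sub2 and Hpr1. These proteins were the baits of the successive protein A and Strep-Tactin steps, Hpr1 as a subunit of the THO complex and Sub2 as its partner helicase. Lysate RNA was taken before the first step and eluate RNA after the biotin elution, and no untagged strain is among the samples.

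The yeast wall is a mesh of beta-1,3-glucan to which beta-1,6-glucan, chitin and mannoproteins are bound. Glucan synthase and chitin synthases are large enzymes of the plasma membrane that spin their polymers outward from nucleotide sugars, and secreted or membrane-anchored enzymes then cut, extend and cross-link the chains. Fungal glucan synthase is the target of the echinocandin drugs, and chitin is concentrated in yeast at the bud neck and in the septum that divides mother and daughter.

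Total counts ranged from 22454265 to 29903666 in the eluates and from 11448755 to 14793216 in the lysates. The genes LEU2, MET17 and URA3, deleted in BY4741, were at 0 in every library. Values below are CPM, the counts scaled to a common library total, over TMM-adjusted library sizes, or that value per kilobase (kb) of coding length where genes are compared with each other. Log2 fold changes are of eluate over lysate within the pool of RNA of either fraction and were tested with edgeR's quasi-likelihood test with Benjamini-Hochberg adjustment over all genes tested. Eluate and lysate differed for most of the transcriptome, with 44.2% of genes higher and 44.8% lower at the threshold used here, an adjusted p under 0.05. The balance of the 2 directions depended on the scaling. Library sizes alone gave 2485 genes higher and 2971 lower, against 2737 and 2772 here. For 94.4% of genes, both eluates lay on one side of both lysates. In bulk samples, the share of cells that express a gene and the RNA per expressing cell cannot be told apart.

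Of the 10 genes, 8 were higher in the eluate and 2 were lower (edgeR adjusted p under 0.05). FKS3, CHS2, CHS1 and GSC2 were over 4-fold higher. FKS1, CHS3, CRH1 and KRE6 were less than 1.5-fold higher. GAS1 was 1.93-fold and BGL2 8.26-fold lower. In each of the 10 genes the eluates did not overlap the lysates, which is near the background of 94.4% of all genes. Replicate values of a fraction differed at most 1.12-fold. The 8 higher and 2 lower genes stand against a background of 44.2% higher and 44.8% lower among all genes. In the class of longest genes, to which 7 of the 10 belong, 83.3% were higher. The median log2 fold change of the 10 genes was 0.43, against -0.01 over all genes tested and 1.56 in the class of longest genes. Together they made up 0.968% and 0.951% of all counts in eluates 1 and 2 (95% exact binomial intervals 0.964% to 0.972% and 0.947% to 0.954%). In lysates 1 and 2 they made up 0.761% and 0.790% (0.757% to 0.766% and 0.785% to 0.795%). Each interval holds the counting error of reads in 1 library alone and leaves out variation between replicates. Intervals of the 2 eluates did not overlap each other, nor did those of the 2 lysates. The reads carry no molecular identifiers, so that copies of 1 molecule could not be told apart. The summed share was thus 1.24 times higher in the eluate, and the 4 libraries allow no two-sided p below 0.33 in an exact permutation test, which is the value obtained.

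**Figure D1:**
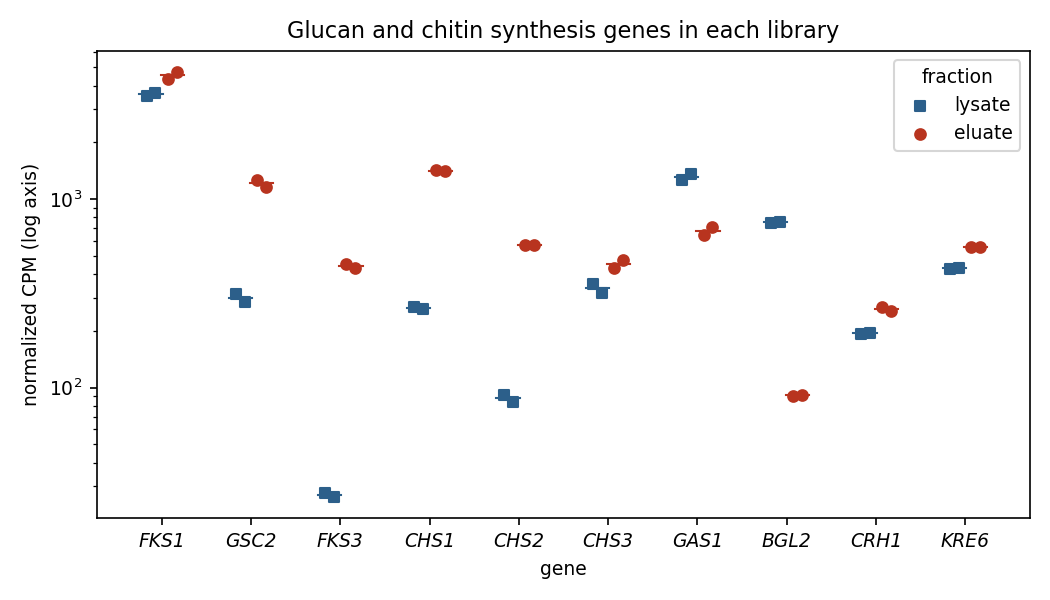
Normalized CPM (log axis) of the 10 genes in each library, with squares for the 2 lysates, circles for the 2 eluates and short lines for the mean of each fraction. The fractions do not overlap in any of the 10 genes, as in 94.4% of all genes tested. Only GAS1 and BGL2 lie lower in the eluates, BGL2 at 90.3 and 91.8 against 749.7 and 755.

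The glucan synthase family spread from the least to the most enriched of the 8 genes that were higher. FKS1 (YLR342W), which encodes the main catalytic subunit of beta-1,3-glucan synthase in growing cells, lies on chromosome XII from 809997 to 815627 (sacCer3) and had 4344 and 4721 CPM in eluates 1 and 2 and 3535 and 3638 CPM in lysates 1 and 2. Both eluates lay above both lysates. The log2 fold change was 0.34 (SE 0.14, edgeR adjusted p = 0.0358). This call did not hold in 6 of 11 alternative settings, among them those without lysate 1 and without lysate 2 (adjusted p = 0.231 and 0.174 from edgeR), and over all alternatives the adjusted p ranged from 0.00482 to 0.231.

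GSC2 (YGR032W), also named FKS2, encodes the alternative catalytic subunit that is known for its induction by stress, by poor carbon sources and in sporulation. It lies on chromosome VII from 548264 to 553951 and had eluate values of 1257 and 1164 CPM and lysate values of 312 and 283 CPM. All eluate values were far above those of the lysates, with a log2 fold change of 2.02 (SE 0.11, edgeR adjusted p = 1.55e-10). FKS3 (YMR306W), a related gene with a role in spore wall formation, lies on chromosome XIII from 881159 to 886516. It had eluate values of 452 and 429 CPM and lysate values of 27.6 and 26.4 CPM. The transcript that was scarcest in the lysate of the 10 was also the one with the steepest rise, a log2 fold change of 4.03 (SE 0.11, edgeR adjusted p = 6.14e-14). The lysate level is the denominator of the fold change, so that scarcity and rise are not independent measures. Only 158 of the 6191 genes tested had a higher fold change. An antisense reading frame, YMR306C-A, overlaps FKS3 by 334 bases and had 22, 32, 5 and 4 counts in eluates 1 and 2 and lysates 1 and 2, beside 9793, 11743, 430 and 325 for FKS3. How the counting treated strand and overlaps was not stated, so that the amount of antisense RNA there cannot be read from these counts.

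The 3 glucan synthase genes were closer in level in the eluate than in the lysate. Per kb of coding length, GSC2 stood at 0.286 and 0.244 of the level of FKS1 in eluates 1 and 2 and at 0.0875 and 0.0770 of it in lysates 1 and 2. The ratio was 3.22 times higher in the eluate, with no overlap between fractions. FKS3 stood at 0.109 and 0.0954 of the level of FKS1 in the eluates and at 0.00820 and 0.00764 in the lysates, a ratio 12.9 times higher. Ratios within a library do not depend on the scaling between libraries. In all, 8 such ratios were compared, and an exact permutation test of each (two-sided) gave p = 0.33, the smallest possible here, or p = 1 (0.444 and 1 after Benjamini-Hochberg adjustment). FKS1 and GSC2 arose as duplicates and resemble each other in sequence, and how reads that fit both were counted was not stated, so that some of either count may belong to the other.

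All 3 chitin synthase genes were higher in the eluate, CHS1 and CHS2 over 4-fold and CHS3 less than 1.5-fold. CHS1 (YNL192W), whose product repairs the wall at cell separation, lies on chromosome XIV from 276502 to 279897. The gene had eluate values of 1423 and 1401 CPM and lysate values of 267 and 262 CPM. The fractions lay far apart, with a log2 fold change of 2.42 (SE 0.11, edgeR adjusted p = 1.54e-11). CHS2 (YBR038W), whose product lays down the primary septum at the end of mitosis, lies on chromosome II from 311898 to 314789. Both replicates were close, with eluate values of 569 and 570.3 CPM and lysate values of 91.9 and 84.1 CPM. This was the second largest rise of the 10, at a log2 fold change of 2.69 (SE 0.10, edgeR adjusted p = 2.27e-12).

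CHS3 (YBR023C), which encodes the synthase of most cell wall chitin, including the ring at the bud neck, lies on chromosome II from 284428 to 287925. There were eluate values of 430.0 and 478 CPM and lysate values of 355 and 317 CPM. The eluates were above the lysates by less than CHS1 or CHS2 showed, with a log2 fold change of 0.43 (SE 0.11, edgeR adjusted p = 0.0013). Per kb, CHS1 was below CHS3 in the lysates, at 0.775 and 0.852 of its level, and above it in the eluates, at 3.41 and 3.02 times. CHS2 was at 0.313 and 0.321 of CHS3 in the lysates and at 1.60 and 1.44 times in the eluates. Both genes thus changed places with CHS3 between the fractions, and the ratios were 3.95 and 4.80 times higher in the eluate without overlap.

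The 2 genes that fell, BGL2 and GAS1, encode enzymes that remodel the wall. BGL2 (YGR282C), which encodes an abundant glucan transferase of the wall, lies on chromosome VII from 1057783 to 1058724. It had eluate values of 90.3 and 91.8 CPM and lysate values of 749.7 and 755 CPM. Both lysates were about equal and far above the eluates, with a log2 fold change of -3.05 (SE 0.11, edgeR adjusted p = 6.32e-13). GAS1 (YMR307W), a membrane-anchored enzyme that elongates beta-1,3-glucan chains, lies on chromosome XIII from 887003 to 888682. It showed eluate values of 645 and 711 CPM and lysate values of 1261 and 1360.2 CPM, so that the fractions differed by far more than their replicates. The log2 fold change was -0.95 (SE 0.11, edgeR adjusted p = 1.32e-06). GAS1 starts 486 bases after the end of FKS3 on the same strand, and these neighbours moved in opposite directions. A reading frame antisense to GAS1, YMR307C-A, had 0 counts in every library. All of its 195 bases overlap GAS1, and how the counting treated strand and overlaps was not stated. Whether antisense RNA was present there therefore cannot be read from these counts.

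CRH1 (YGR189C), a transglycosylase that joins chitin to glucan, lies on chromosome VII from 876669 to 878192. The transcript had eluate values of 268 and 256 CPM and lysate values of 194 and 195 CPM, a small rise with a log2 fold change of 0.43 (SE 0.09, edgeR adjusted p = 0.000458). KRE6 (YPR159W), needed for the synthesis of beta-1,6-glucan, lies on chromosome XVI from 857583 to 859745. It had 558 CPM in each eluate, against 428 and 434 CPM in lysates 1 and 2. Its rise was small as well, with a log2 fold change of 0.37 (SE 0.10, edgeR adjusted p = 0.0025). KRE6 did not pass when libraries were scaled by their totals alone (edgeR adjusted p = 0.0502), a scaling that moved all genes by a median of -0.18 on the log2 scale.

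Set against FKS1 within each library, KRE6 kept the same place. It stood at 0.335 and 0.307 of FKS1 per kb in the eluates and at 0.315 and 0.310 in the lysates. These values overlapped, and the log2 ratio was -1.64 ± 0.0865 in the eluates and -1.68 ± 0.0166 in the lysates (SD, n = 2 each). CRH1 likewise overlapped between fractions when set against CHS3, with a log2 ratio of 0.41 ± 0.156 in the eluates and 0.41 ± 0.121 in the lysates. With 2 libraries a fraction, a difference smaller than this spread was not detectable. GAS1 over FKS1 fell from 1.20 and 1.25 in the lysates to 0.498 and 0.505 in the eluates. BGL2 over FKS1 fell from 1.27 and 1.24 to 0.124 and 0.116, the widest loss among the 8 ratios.

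Levels per kb of the 10 genes were far more even in the eluate than in the lysate. Whether other sets of genes show the same was not tested. The study reports that coverage in the eluates, unlike the lysates, leaned toward the start of transcripts, though less in single profiles than in its scaled average. The part of this lean in levels per kb of full coding length was not tested. In the lysates the order ran from BGL2 (799 ± 3.80 CPM per kb), GAS1 (780.2 ± 41.6) and FKS1 (637 ± 12.9) through KRE6, CRH1, CHS3, CHS1, GSC2 and CHS2 down to FKS3 (5.04 ± 0.151, SD, n = 2 each). The highest was 158 times the lowest, or 26.2 times without FKS3. BGL2 and GAS1 did not differ beyond their spread, and every other neighbour in this order was separate. In the eluates FKS1 came first (805 ± 47.3 CPM per kb), followed by CHS1 (416 ± 4.54), GAS1 (404 ± 27.7), KRE6 (258 ± 0.281), GSC2 (213 ± 11.6), CHS2 (197 ± 0.366), CRH1 (172 ± 5.80), CHS3, BGL2 and FKS3 (82.2 ± 3.12, SD, n = 2 each). Here the highest was 9.79 times the lowest, or 8.33 times without FKS3. CHS1 and GAS1 overlapped, and the other neighbours did not. BGL2 went from first to next to last, and CHS1 from the seventh place to the second.

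**Figure D2:**
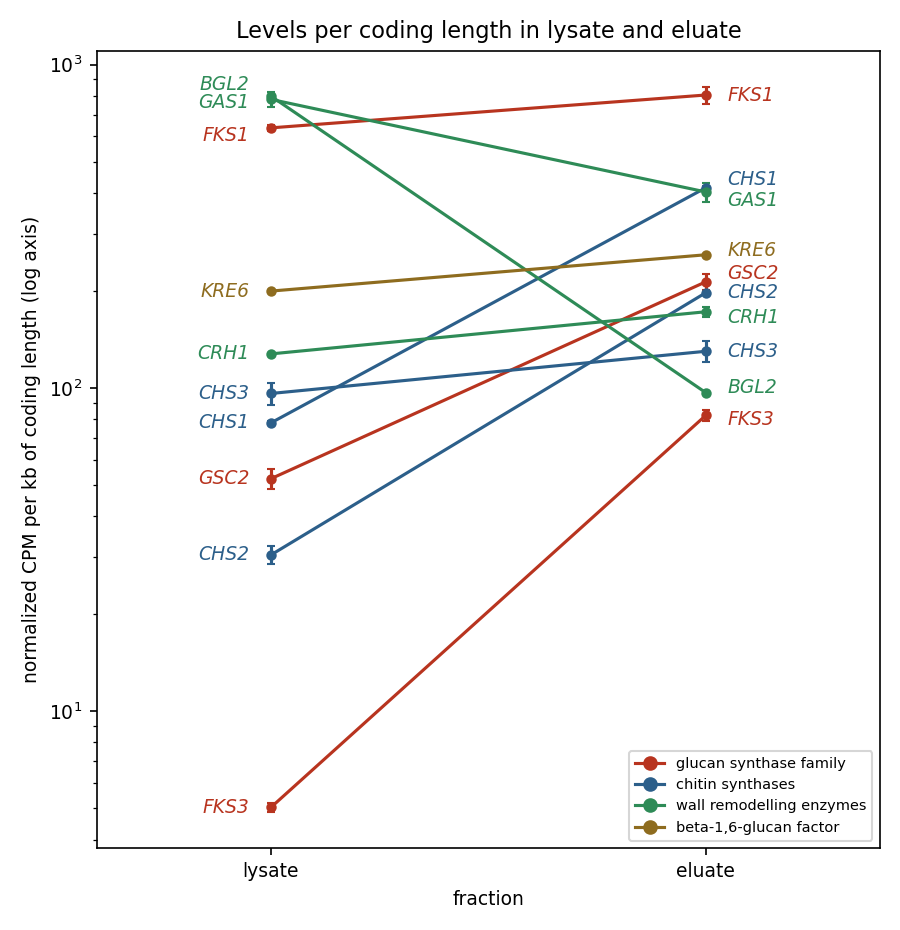
Normalized CPM per kb of coding length (log axis) in lysate and eluate, as the mean of 2 libraries with bars of 1 SD, for the 10 genes coloured by the class of enzyme. Lines converge toward the eluate, where the highest gene is 9.79 times the lowest, against 158 times in the lysate.

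Long coding sequences were enriched in the eluate across the genome, and the 10 genes were read against genes of like length. Of them 7, FKS1, GSC2, FKS3, CHS1, CHS2, CHS3 and KRE6, belong to the longest of 5 equal classes of nuclear protein-coding genes (2121 to 14733 bases). In that class the median log2 fold change was 1.56 and 83.3% of genes were higher, so that 7 of 7 higher is near its background. FKS3 and CHS2 lay above the upper quartile of that class (2.54), CHS1 and GSC2 above its median, and FKS1, CHS3 and KRE6 below its lower quartile (0.69). FKS1 and GSC2, with 5631 and 5688 bases, differ little in length and stood at log2 fold changes of 0.34 and 2.02. CHS1 and CHS3, with 3396 and 3498 bases, stood at 2.42 and 0.43. CRH1 (1524 bases) and GAS1 (1680 bases) belong to the class of 1464 to 2118 bases, whose median was 0.53, and GAS1 lay below its lower quartile of -0.40. BGL2, with 942 bases the shortest of the 10, lay below the lower quartile (-1.98) of the class of 618 to 1008 bases, whose median was -0.95. Across the 10 genes, coding length and log2 fold change had a Spearman's rho of 0.52, as a description of 10 genes measured in the same libraries. The part of length in the values of single genes was not tested.

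**Figure D3:**
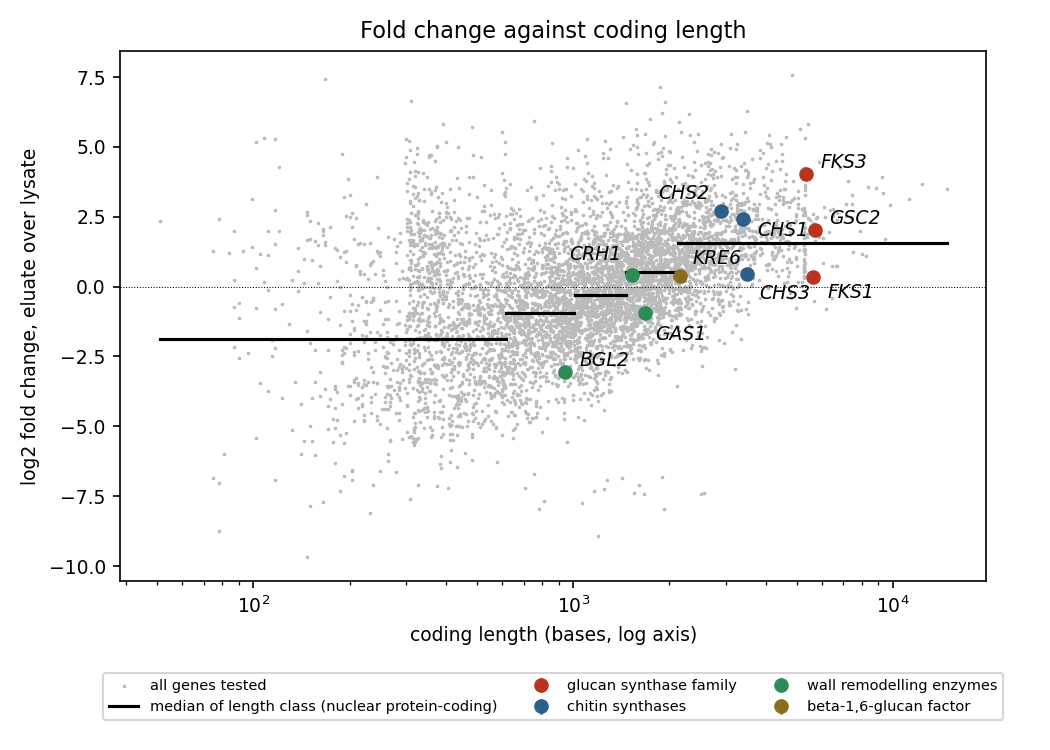
Log2 fold change of eluate over lysate against coding length (bases, log axis) for all 6191 genes tested (grey), with black lines for the medians of 5 length classes of nuclear protein-coding genes and coloured points for the 10 genes (bars, standard error, mostly within the points). FKS3, CHS2, CHS1 and GSC2 lie above the median of the longest class (1.56), while FKS1, CHS3 and KRE6 lie below it, and CRH1, GAS1 and BGL2 lie below the medians of their classes.

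Other genes of the wall were read in 9 groups of 71 genes in all, each of them tested. Of these, 43 were higher, 20 lower and 8 did not pass at an adjusted p under 0.05 from edgeR, with a median log2 fold change of 0.68 (all genes, 44.2% higher, 44.8% lower and -0.01). The groups were chosen for their roles and differ in coding length. Medians, rises and falls given for them below are log2 fold changes of eluate over lysate.

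Regulators of the chitin synthases moved in both directions. Of 11 regulators and export factors of the chitin synthases, 6 were higher, 4 lower and 1 did not pass (median 0.19). Without eluate 2, without lysate 2 and in DESeq2, 4 were higher and 4 lower, and with library sizes alone 4 were higher and 5 lower. BNI4, the scaffold that places chitin synthesis at the bud neck, rose by 2.21 on the log2 scale. Its eluate and lysate means were 392 ± 6.36 and 84.9 ± 1.77 CPM (± SD, n = 2). PFA4, the palmitoyl transferase that modifies Chs3, fell by 1.94. CHS5, of the exomer coat that carries Chs3 to the surface, showed eluate and lysate means of 302 ± 18.3 and 307 ± 18.0 CPM (± SD, n = 2) without passing the test (edgeR adjusted p = 0.826, and 0.0465 with library sizes alone). No gene was higher among the 4 enzymes that make the precursor of chitin, UDP-N-acetylglucosamine (3 lower and 1 not passed, median -1.35). GFA1, which catalyses the first step, fell by 0.50 and QRI1, which catalyses the last, fell by 2.39, while GNA1, an acetyltransferase, did not pass (log2 fold change -0.04, edgeR adjusted p = 0.717).

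Of 9 genes around Rho1, 8 were higher and 1 lower, with a median of 2.0 at a median coding length of 3054 bases. That length falls in the class of longest genes, where 83.3% were higher with a median of 1.56. The 8 of 9 are thus near the share of that class, to which not all 9 genes belong. The gene that was lower is RHO1 itself, whose product is the regulatory GTPase of glucan synthase. It has a coding length of 630 bases and had lysate and eluate means of 519 ± 16.8 and 70.7 ± 0.455 CPM (± SD, n = 2), a log2 fold change of -2.88. TUS1, an exchange factor that activates Rho1, rose by 3.93 on the log2 scale, the highest of this group. Of 6 genes of the protein kinase C cascade that Rho1 activates, 4 were higher, 1 lower and 1 did not pass (median 2.25). BCK1, the kinase at the top of its MAP kinase module, rose by 4.22 and SLT2, the MAP kinase at its end, fell by 0.32.

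Factors of beta-1,6-glucan assembly were divided. Of 11 genes, 4 were higher, 5 lower and 2 did not pass, with a median of -0.26. SKN1, the duplicate of KRE6, rose by 1.84 on the log2 scale, with eluate and lysate means of 579 ± 47.5 and 162 ± 11.9 CPM (± SD, n = 2). ROT1, a chaperone of the endoplasmic reticulum, fell by 1.23. KEG1, which binds Kre6 there, fell by 3.86 with only 38 and 55 eluate counts, against 458 and 317 lysate counts.

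Of 6 paralogues of GAS1 and CRH1, 4 were higher, none was lower and 2 did not pass (median 0.72), while with library sizes alone 3 were higher and 2 lower. CRR1, a relative of Crh1 in the spore wall, rose by 1.54 and UTR2, which shares the activity of Crh1, rose by 1.22, both on the log2 scale. GAS5 did not pass (log2 fold change -0.21, edgeR adjusted p = 0.0717), although it was lower with library sizes alone, without eluate 2 and without lysate 2 (adjusted p = 0.00382, 0.0118 and 0.031). Among 9 glucanases and their relatives, 7 were higher, 1 lower and 1 did not pass (median 1.19). SCW11, which acts in cell separation, had eluate and lysate means of 609.8 ± 5.69 and 55.8 ± 5.63 CPM (± SD, n = 2), a log2 fold change of 3.45. EXG1, the main exoglucanase, fell by 0.67. Of 4 chitinases and chitin deacetylases, 2 were higher and 2 lower (median -0.04), among them the chitinase CTS1, which rose by 0.69, and CTS2, which fell by 0.76. CTS1 and CTS2 each overlap a reading frame on the opposite strand, and how the counting treated strand was not stated.

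Most genes of structural wall proteins were higher. Of 11 genes, 8 were higher and 3 lower, with a median of 1.35 at a median coding length of 720.0 bases. HSP150, a wall protein with internal repeats, rose by 4.77 on the log2 scale, with eluate and lysate means of 1430.2 ± 90.4 and 52.7 ± 7.90 CPM (± SD, n = 2). CCW12, an abundant mannoprotein, fell by 1.93, with eluate and lysate means of 352 ± 5.17 and 1344 ± 423 CPM (± SD, n = 2). Its lysates lay wide apart, at 1045 and 1643.5 CPM.

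**Figure D4:**
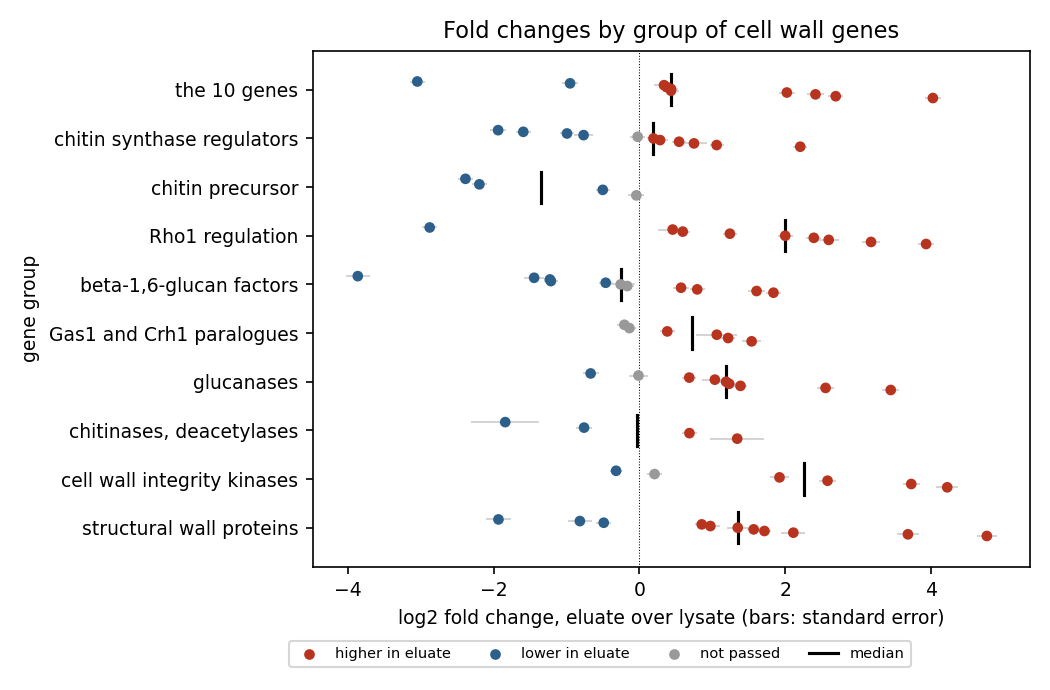
Log2 fold change of eluate over lysate with its standard error for the 10 genes and for 9 groups of other wall genes, with 1 point per gene coloured by the result of the test and a black line at the median of each group. Medians run from -1.35 for the enzymes of the chitin precursor to 2.25 for the protein kinase C cascade, and most groups hold genes on both sides of 0.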

How the data were processed

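The counts used are those the authors deposited, 1 per reading frame and library. Per the labels and the study's methods, RNA was depleted of ribosomal RNA, strand-specific libraries were sequenced from both ends, and the processing notes name STAR 2.7.9a, featureCounts (Subread 2.0.3) and sacCer3. Options of the counting are not given in the sources used. A second deposited table holds the authors' own DESeq2 1.38.3 comparison and was not used. Symbols came from RefSeq (R64), which matched 6008 of 6692 identifiers, all 10 members and all 71 listed genes.

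Counts were fitted once across all genes in edgeR 4.0.16 (R 4.3.3, default low-count filter, TMM, fraction as only term), after a check on simulated data. In the simulation most genes were unchanged, unlike in these data, so that it does not test the scaling used here. Standard errors are log2 fold changes over the root of F. Alternatives were other scalings and filters, DESeq2 1.42.0, limma-voom (limma 3.58.1), a replicate block and leaving out each library. Ratios, shares and permutation tests used Python 3.11.15 and scipy 1.17.1. The members and lists were chosen with earlier results of these data known. Named from each list are the genes of highest and lowest fold change and of highest lysate CPM per kb, at a mean of at least 10 CPM. No sequences were analysed here.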

Additional observations from a re-analysis of the deposited data

How the results depend on the processing

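All 10 genes kept their direction under each of the 11 alternatives. FKS1 lost its call in 6 of them. These were RLE factors (adjusted p = 0.0726), library sizes alone (0.128), no filter (0.0658), the replicate block (0.0722) and leaving out either lysate. KRE6 lost its call with library sizes alone, and the other 8 genes kept theirs throughout. Of the 10 genes, 6 to 8 were thus called higher and 2 lower. With the replicate number as a block, 2730 genes were higher and 2769 lower, against 2737 and 2772 without it. The numbers are not stated to pair samples, and deviations of same-numbered samples had a correlation of -0.03 across genes. Among named genes of the lists, CHS5 was called lower with library sizes alone, and GAS5 under the 3 settings given with it. The differences of CRH1 over CHS3 and of KRE6 over FKS1 between fractions, near 0, took either sign when a library was left out. Depth did not limit the 10 genes, whose lowest count was 325, whereas the deacetylase genes CDA1 and CDA2 had at most 46 counts in a library.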

Other observations

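The pairs below were put together after the values were seen and carry no test. GSC2, SKN1 and UTR2 had log2 fold changes of 2.02, 1.84 and 1.22, above the 0.34, 0.37 and 0.43 of FKS1, KRE6 and CRH1. In the lysates FKS1 and KRE6 had the higher levels of their pairs (637 against 52.4 CPM per kb for GSC2, and 199 against 69.9 for SKN1), but CRH1 had the lower one (127 against 205 for UTR2). Not all related genes differed in this way, with log2 fold changes of 1.19 and 1.39 for SCW4 and SCW10, and of -0.17 and -0.26 for KRE9 and KNH1, neither of which passed the test. Per kb, the highest eluate level among all 71 listed genes was that of HSP150 (1152 CPM per kb), and among the regulators of Rho1 that of BEM2 (688 CPM per kb). HSP150 and CCW12 (875 CPM per kb) were above FKS1 (805 CPM per kb) in the eluates.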
